A study of Mus musculus with 6 samples.

Results

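Azacytidine is a cytidine analog that acts only after a cell has taken it up and phosphorylated it, and 10 genes of that route and of the deoxynucleotide supply it feeds into were followed in the RNA-seq table: the nucleoside carrier gene Slc29a1, the kinase genes Uck1, Uck2, Dck and Tk1, the breakdown genes Cda and Samhd1, and the synthesis genes Rrm1, Rrm2 and Tyms. They were picked by gene symbol for what their proteins do with the drug and its natural counterparts, and each matched 1 row among the 54532 genes of the table. The 6 libraries were made from mouse cardiosphere-derived cells (iCDCs, C57BL/6 strain, labelled as heart ventricle) at passage 30. The study's methods take them from the epicardium of adult mice. They had been immortalized with a lentiviral human TERT gene behind a CMV promoter and selected with puromycin, and control and induced cells both carried it. The 3 control libraries came from cells without the induction, and the 3 induced libraries from cells given 10 µM 5-azacytidine for 3 days and then, by the labels, kept in IMDM with 2% FBS for 4 weeks. The study's methods for the cardiac induction give low-glucose DMEM and a shorter time after the drug, and which of these holds for the sequenced cells could not be settled. Routine growth medium held more serum, and the medium and time of the sequenced controls are not given in the sources used here, so the drug, the serum and the weeks in culture cannot be told apart in any difference between the groups. RNA was therefore read weeks after the drug had been taken away, and no library was taken during the 3 days of exposure. Both groups came from the immortalized cells, each with 3 separate samples, and nothing says that these came from separate animals, so the p-values measure the spread between these samples, which may be technical.

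Nucleosides such as azacytidine cross the plasma membrane through equilibrative carriers, of which SLC29A1 (ENT1) is the most widely expressed, and are then trapped in the cell by a first phosphate. Uridine-cytidine kinases (UCK1 and UCK2) add it to ribonucleosides, azacytidine included, whereas deoxycytidine kinase (DCK) acts on deoxycytidine and on decitabine, the deoxy form of the drug. The diphosphate of azacytidine is partly reduced to the deoxy form by ribonucleotide reductase, made of the large subunit RRM1 and the small subunit RRM2, and only that form enters DNA, where it traps DNA methyltransferases. Cytidine deaminase (CDA) inactivates the nucleoside, and SAMHD1 cleaves deoxynucleoside triphosphates. Thymidylate synthase (TYMS) and thymidine kinase 1 (TK1) supply thymidine nucleotides by the de novo and the salvage route, and RRM2, TYMS and TK1 are well known for being made mainly while a cell copies its DNA.

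Total counts ran from 19041133 to 19823369 reads a library, and the genes were covered by 167 to 3762 reads each in every library. The coefficient of variation within a group was 1.13 to 9.99% over the 10 genes. Counts were scaled with the trimmed mean of M-values (TMM) and are given as CPM, the usual scale for a share of the scaled library total. Differences are log2 fold changes, induced over control, from the quasi-likelihood F test of edgeR, with p-values adjusted by Benjamini-Hochberg over the 14246 genes tested. All 10 genes were among these.

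All 10 genes passed an adjusted p of 0.05, 2 in the higher and 8 in the lower direction. The genes that rose were the uridine-cytidine kinases Uck1 and Uck2, which add the first phosphate to azacytidine, and the genes that fell were the carrier Slc29a1, both deoxynucleoside kinases, both breakdown genes and the 3 synthesis genes. The change was wide across the table: 64.8% of all tested genes passed in either direction, 32.6% higher and 32.2% lower, so passing the test did not by itself set these genes apart. The median log2 fold change of the 10 genes was -0.61, against -0.01 over all tested genes, and their median absolute change was 0.61 against 0.36. Tyms and Tk1 were the 2 that were at least 2-fold lower, where 7.83% of tested genes were. For each of the 10 genes the 3 control values and the 3 induced values did not overlap, as was the case for 68.6% of tested genes.

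**Figure D1:**
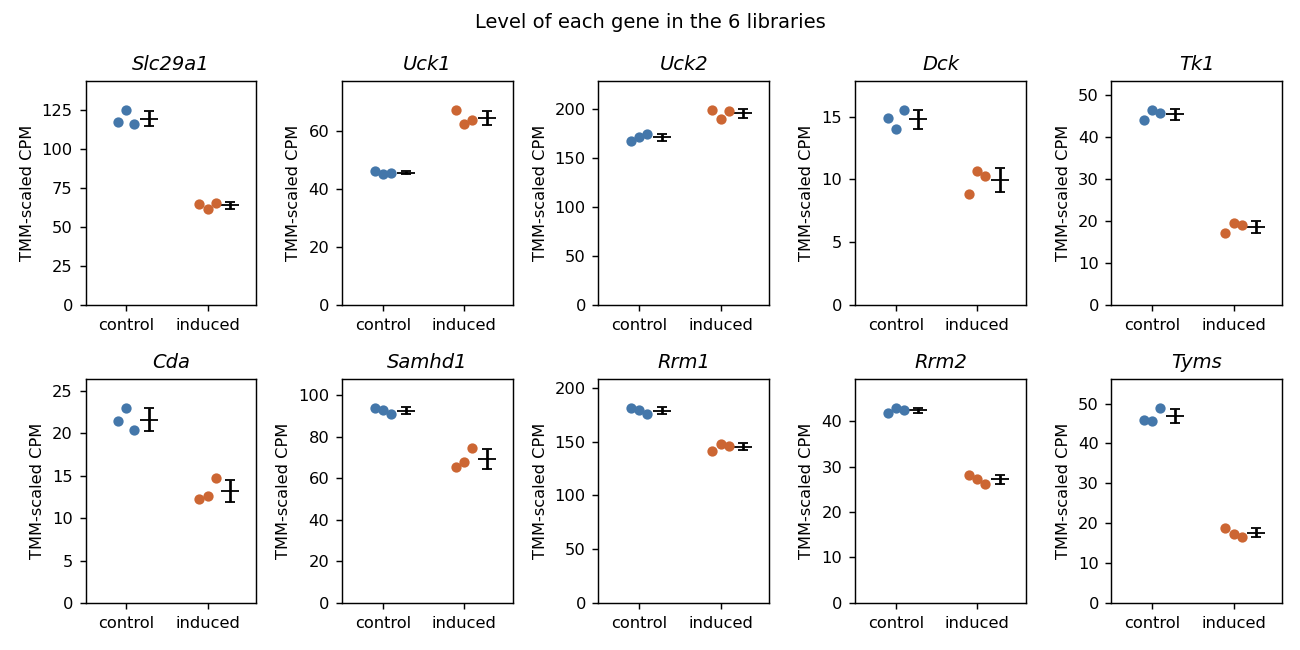
TMM-scaled CPM (vertical axes, each from 0) of the 10 genes in the 3 control libraries (blue points) and the 3 induced libraries (orange points), with the mean and SD of each group in black. The induced points lie above the control points for Uck1 and Uck2 and below them for the other 8 genes, and no pair of groups overlaps.

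Uptake was represented by Slc29a1 (ENSMUSG00000023942), on the minus strand of chr17:45585200-45599606 in GRCm38. Its level was 117.4, 124.8 and 115.9 CPM in the control libraries and 64.6, 61.6 and 65.4 CPM in the induced libraries. Every induced library was thus well below every control library, and the libraries of a group lay close together. The mean went from 119.4 ± 4.76 to 63.9 ± 1.97 CPM (SD, n = 3 each), a log2 fold change of -0.90 (SE 0.05, edgeR adjusted p = 5.18e-11), or 1.87-fold lower. Of its exon bases, 6.86% are also covered by the antisense gene Gm17080, and no strand setting is given for the counting.

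The first phosphate on azacytidine is added by UCK1 and UCK2. Uck1 (ENSMUSG00000002550, chr2:32255002-32260159, minus strand) stood at 46.3, 45.3 and 45.6 CPM in the control libraries and at 67.2, 62.3 and 63.9 CPM in the induced libraries. The control values were nearly equal, and all induced values lay above them. The mean rose from 45.8 ± 0.516 to 64.5 ± 2.5 CPM (SD, n = 3 each), a log2 fold change of 0.49 (SE 0.05, edgeR adjusted p = 2.06e-07), or 1.41-fold.

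Uck2 (ENSMUSG00000026558, chr1:167222883-167285320, minus strand) encodes the uridine-cytidine kinase known to be abundant in tumours. It stood at 167.2, 171.4 and 174.2 CPM in the control libraries and at 198.3, 189.6 and 197.2 CPM in the induced libraries. The groups did not overlap, but the gap between them was narrow beside the level. The mean rose from 170.9 ± 3.5 to 195.0 ± 4.73 CPM (SD, n = 3 each), a log2 fold change of 0.19 (SE 0.05, edgeR adjusted p = 0.00165), or 1.14-fold, the smallest change of the 10 genes. Exon bases shared with a gene on the other strand came to 0.145% for Uck1 and 2.75% for Uck2.

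The kinases of deoxynucleosides went the other way. Dck (ENSMUSG00000029366, chr5:88764996-88783281, plus strand), which activates deoxycytidine and decitabine, had the fewest reads of the 10 genes and stood at 14.9, 14 and 15.5 CPM in the control libraries and 8.88, 10.7 and 10.3 CPM in the induced libraries. It rested on 167 to 310 reads a library, and induced library 1 was the lowest of the 6. The mean fell from 14.8 ± 0.761 to 9.96 ± 0.955 CPM (SD, n = 3 each), a log2 fold change of -0.57 (SE 0.10, edgeR adjusted p = 8.84e-05).

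Tk1 (ENSMUSG00000025574, chr11:117815526-117826092, minus strand), the cytosolic thymidine kinase, stood at 44, 46.4 and 45.8 CPM in the control libraries and at 17.1, 19.6 and 19.2 CPM in the induced libraries. The gap between the groups was many times the spread within them. Its mean fell from 45.4 ± 1.22 to 18.6 ± 1.35 CPM (SD, n = 3 each), a log2 fold change of -1.29 (SE 0.07, edgeR adjusted p = 1.49e-11), or 2.44-fold lower. Of its exon bases, 1.6% are shared with Afmid on the other strand.

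Both breakdown genes fell. Cda (ENSMUSG00000028755, chr4:138338424-138367992, minus strand), whose enzyme deaminates cytidine, deoxycytidine and azacytidine, stood at 21.5, 23 and 20.4 CPM in the control libraries and at 12.3, 12.6 and 14.7 CPM in the induced libraries. Induced library 3 was the highest of its group and still below all controls. The mean fell from 21.7 ± 1.3 to 13.2 ± 1.32 CPM (SD, n = 3 each), a log2 fold change of -0.71 (SE 0.09, edgeR adjusted p = 2e-06).

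Samhd1 (ENSMUSG00000027639, chr2:157097533-157135265, minus strand), the triphosphohydrolase of deoxynucleotides, stood at 93.9, 93.1 and 91 CPM in the control libraries and at 65.3, 67.9 and 74.5 CPM in the induced libraries. The controls lay close together, and the induced libraries spread over a wider range below them. On average it fell from 92.7 ± 1.48 to 69.2 ± 4.78 CPM (SD, n = 3 each), a log2 fold change of -0.42 (SE 0.06, edgeR adjusted p = 3.62e-06). SAMHD1 is known from immune cells as an interferon-inducible restriction factor. In the same libraries all 15 listed interferon-response genes rose, with a median log2 fold change of 4.61, where 32.6% of all tested genes rose. The summed level of these 15 genes was 168.0 to 176.9 CPM in the control and 844.6 to 1116.3 CPM in the induced libraries. Ifit3 and Ifit1, which encode antiviral proteins, had log2 fold changes of 6.27 and 5.85. The part of the interferon response in the change of Samhd1 was not tested. Fewer cells of a type and less RNA per cell cannot be told apart in these bulk libraries, here or for any gene given.

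Deoxynucleotide synthesis was followed through Rrm1, Rrm2 and Tyms, which fell by unequal amounts. The bases just upstream of their RefSeq starts are shown for reference, and the part of these bases in the changes was not tested. They are given 5′ to 3′ on the strand of the gene (GRCm38.p6), with each CCAAT box, the letters bound by the factor NF-Y, in capitals. The windows lie at chr7:102441445-102441694 (plus strand) for Rrm1, at chr12:24708004-24708240 (plus strand) for Rrm2 and at chr5:30073626-30073875 (minus strand) for Tyms.
Rrm1: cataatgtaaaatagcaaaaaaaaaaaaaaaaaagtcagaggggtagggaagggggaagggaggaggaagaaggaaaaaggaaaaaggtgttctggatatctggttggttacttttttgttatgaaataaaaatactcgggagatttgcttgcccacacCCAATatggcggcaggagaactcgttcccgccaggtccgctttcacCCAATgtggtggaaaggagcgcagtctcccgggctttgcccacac
Rrm2: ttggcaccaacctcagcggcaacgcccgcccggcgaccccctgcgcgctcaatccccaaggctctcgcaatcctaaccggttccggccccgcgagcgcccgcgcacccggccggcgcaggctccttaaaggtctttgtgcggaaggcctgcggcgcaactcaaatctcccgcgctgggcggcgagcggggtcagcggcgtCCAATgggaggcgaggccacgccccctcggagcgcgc
Tyms: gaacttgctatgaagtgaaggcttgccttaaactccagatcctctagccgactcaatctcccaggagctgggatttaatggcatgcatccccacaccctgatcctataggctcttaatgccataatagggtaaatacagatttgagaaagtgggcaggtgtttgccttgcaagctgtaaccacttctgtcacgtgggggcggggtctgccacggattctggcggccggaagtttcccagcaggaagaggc
Rrm1 held 2 copies of CCAAT, Rrm2 held 1 and Tyms none. Either strand counted, CCAAT stood in 33.8% of the 32851 RefSeq promoter windows of 250 bases, so such matches are common. The E2F letters TTTCCCGC or TTTGGCGC, found in 1.3% of windows, and the interferon-response letters GAAANNGAA, found in 7.13%, were in no window of the 10 genes, which says only that these exact letters are not in these stretches. The letters TTTGAA, a cell cycle element found in 16% of windows, stood in windows of Uck2, Dck and Slc29a1.

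Rrm1 (ENSMUSG00000030978, chr7:102441695-102469771, plus strand), the large subunit with the catalytic and regulatory sites, was the most frequently read of the 10 genes in the control libraries at 181.4, 179.7 and 175.7 CPM. The induced libraries stood at 141.5, 147.9 and 146.4 CPM. The groups were clearly apart, but the shift was modest beside the level. The mean fell from 178.9 ± 2.94 to 145.2 ± 3.34 CPM (SD, n = 3 each), a log2 fold change of -0.30 (SE 0.05, edgeR adjusted p = 1.96e-05).

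Rrm2 (ENSMUSG00000020649, chr12:24708241-24714146, plus strand), the small subunit that carries the tyrosyl radical, stood at 41.9, 42.9 and 42.4 CPM in the control libraries and at 28.1, 27.2 and 26.2 CPM in the induced libraries. Both groups were tight. Its mean fell from 42.4 ± 0.502 to 27.2 ± 0.956 CPM (SD, n = 3 each), a log2 fold change of -0.64 (SE 0.06, edgeR adjusted p = 4.63e-08).

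Tyms (ENSMUSG00000025747, chr5:30058202-30073617, minus strand), which makes thymidylate from deoxyuridylate, had the largest change of the 10 genes. It stood at 46, 45.7 and 48.9 CPM in the control libraries and at 18.8, 17.4 and 16.6 CPM in the induced libraries. Every induced library was far below every control library. On average it fell from 46.9 ± 1.77 to 17.6 ± 1.09 CPM (SD, n = 3 each), a log2 fold change of -1.41 (SE 0.07, edgeR adjusted p = 3.49e-12), or 2.66-fold lower. Its processed pseudogene Tyms-ps had 1 read in a single control library, and none in the other libraries.

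**Figure D2:**
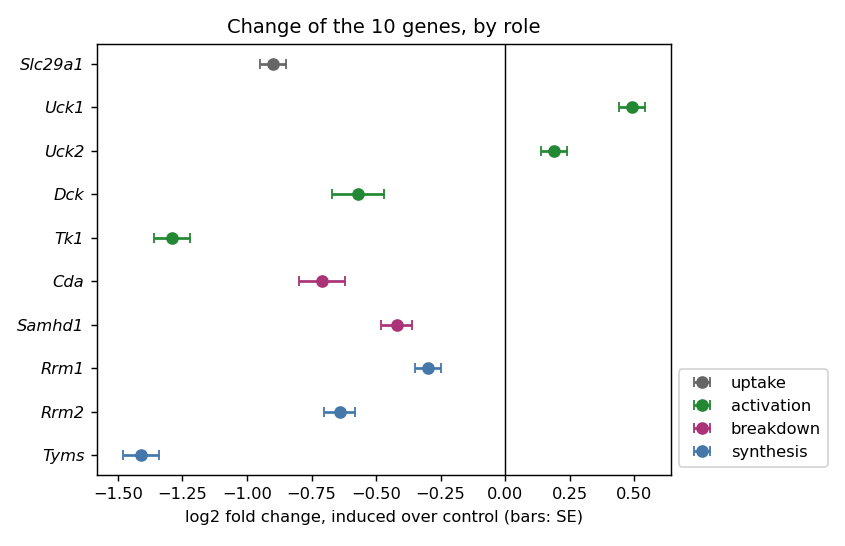
log2 fold change, induced over control, of the 10 genes (points, bars are the SE of edgeR's fit), coloured by role. Uck1 at 0.49 and Uck2 at 0.19 lie right of the line at 0, and the other 8 genes lie left of it, from Rrm1 at -0.30 to Tyms at -1.41.

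Levels can be set against each other between genes only per gene length, for which the deposited FPKM values serve. The length used counts every annotated exon base of a gene, from 1035 for Cda to 11012 for Rrm1. A transcript made in these cells may be shorter, so the order below depends on the lengths used. In the control libraries Uck2 (31 ± 0.659 FPKM) and Slc29a1 (29.5 ± 1.12 FPKM) led, with overlapping values, followed by Cda at 20.7 ± 1.2 FPKM. Uck1 (16.5 ± 0.202 FPKM) and Rrm1 (16.1 ± 0.245 FPKM) overlapped too, and Rrm2 came next at 15.2 ± 0.166 FPKM. Samhd1 at 10 ± 0.148, Tk1 at 8.65 ± 0.227, Tyms at 7.62 ± 0.302 and Dck at 3.88 ± 0.208 FPKM closed the order without overlap.

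In the induced libraries Uck2 stood alone at the top with 35.6 ± 0.919 FPKM and Uck1 was the next with 23.4 ± 0.938 FPKM, above Slc29a1 at 15.9 ± 0.515 FPKM. The azacytidine kinases thus led the order after induction, where Slc29a1 and Cda had stood above Uck1 in the controls. Rrm1 (13.2 ± 0.288 FPKM) and Cda (12.7 ± 1.28 FPKM) overlapped, and Rrm2 and Samhd1 followed at 9.8 ± 0.345 and 7.55 ± 0.524 FPKM. Tk1 came to 3.57 ± 0.256 FPKM, and Tyms and Dck, at 2.88 ± 0.179 and 2.63 ± 0.249 FPKM, overlapped at the bottom (SD, n = 3 for each value).

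**Figure D3:**
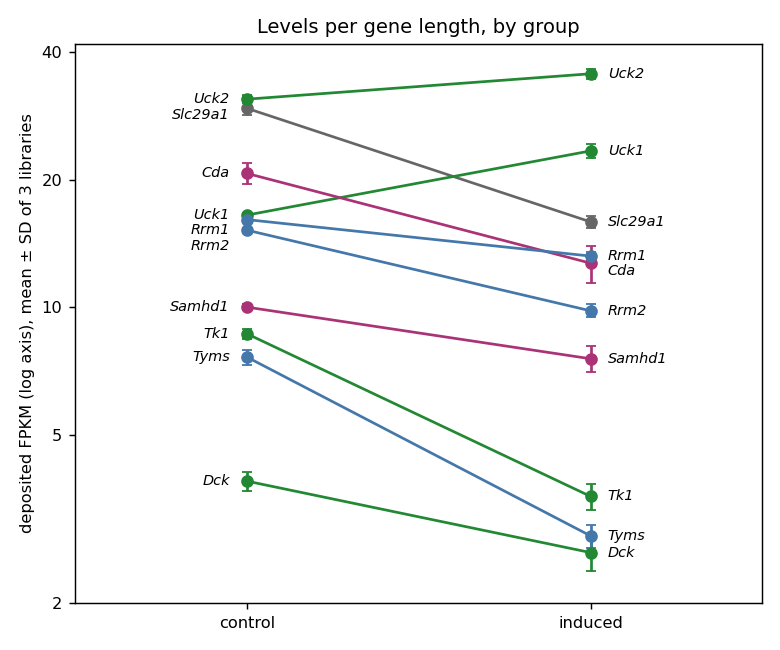
Deposited FPKM of the 10 genes on a log axis, mean ± SD of 3 libraries, in the control and the induced group, with colours by role as in the plot of log2 fold changes (green activation, grey uptake, purple breakdown, blue synthesis). Uck1 goes from 16.5 to 23.4 FPKM and passes Slc29a1 and Cda, while Tyms and Tk1 drop towards Dck.

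Ratios within a library set the genes against their closest counterparts without the scaling between libraries, and 6 were compared by a two-sided exact permutation test, for which 3 against 3 libraries cannot give a p below 0.1. The ratio of Rrm2 to Rrm2b, the p53-inducible small subunit that serves repair and mitochondrial DNA in resting cells, was 10.98, 10.91 and 11.98 in the control libraries and 4.52, 4.11 and 4.30 in the induced libraries. Rrm2 remained above Rrm2b in all 6 libraries, but by far less after induction, with a log2 difference of -1.39. Rrm2b itself rose from 12.4 ± 0.654 to 20.8 ± 0.913 CPM (SD, n = 3 each), a log2 fold change of 0.75 (SE 0.09, edgeR adjusted p = 5.1e-07).

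The ratio of Tk1 to Tk2, the mitochondrial thymidine kinase, was 1.39, 1.52 and 1.57 in the control libraries and 0.35, 0.42 and 0.38 in the induced libraries. Tk1 was above Tk2 in all control libraries and below it in all induced libraries, with a log2 difference of -1.96. As with the other ratios, which gene stands higher depends on the lengths used, here 5198 bases for Tk1 and 3571 for Tk2. The shift between the groups does not depend on them. Tk2 rose from 20.9 ± 0.876 to 33.3 ± 1.13 CPM (SD, n = 3 each), with a log2 fold change of 0.67 (edgeR adjusted p = 1.37e-07).

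The ratio of Rrm1 to Rrm2 went from 1.09, 1.06 and 1.04 to 1.27, 1.37 and 1.41, so the large subunit gained on the small one, with a log2 difference of 0.34. Uck2 to Uck1 went from 1.82, 1.90 and 1.92 to 1.49, 1.53 and 1.55, a log2 difference of -0.30 in the direction of Uck1. Slc29a1 to Slc29a2, the second plasma membrane carrier, went from 9.16, 11.19 and 10.73 to 9.14, 7.16 and 8.37, where the lowest control and the highest induced library nearly met (log2 difference -0.34). Slc29a2 had fallen as well, from 7.15 ± 0.664 to 4.83 ± 0.477 CPM (SD, n = 3 each), with a log2 fold change of -0.56 (edgeR adjusted p = 0.00202). These 5 ratios each gave the smallest possible exact permutation p of 0.1, or 0.12 adjusted over the 6 ratios.

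Dck to Cda, the enzymes that activate and inactivate deoxycytidine, was the ratio whose groups overlapped: 0.19, 0.17 and 0.21 in the control and 0.20, 0.23 and 0.19 in the induced libraries. Its log2 difference was 0.14, within the SD of 0.16 pooled over the groups (exact permutation p = 0.4). Both genes fell, and a difference between their falls was not detectable with 3 libraries a group.

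**Figure D4:**
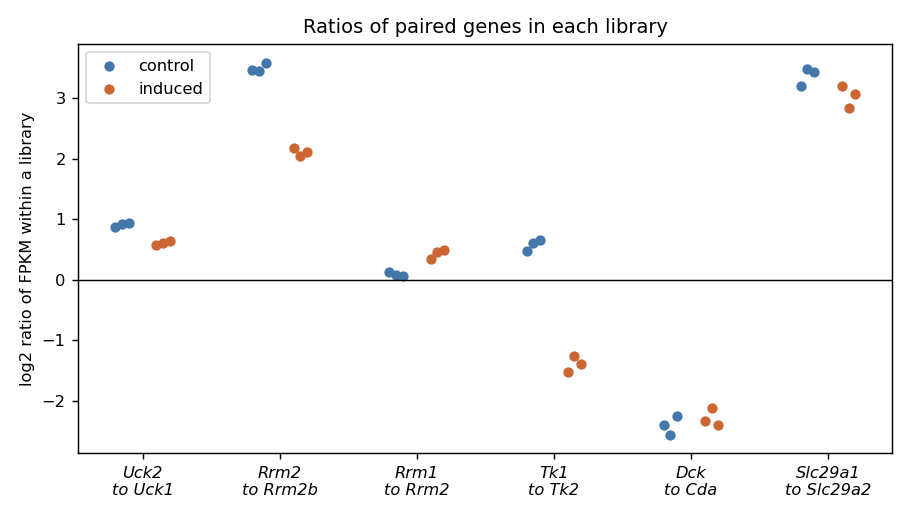
log2 of the FPKM ratio of each gene pair within a library (vertical axis), 3 control libraries in blue and 3 induced libraries in orange. The points of Tk1 to Tk2 lie above 0 in the control and below 0 in the induced libraries, and those of Dck to Cda overlap.

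Of the other nucleoside and nucleotide carriers and exporters, 7 of 11 listed were tested, of which 4 rose, 1 fell and 2 did not pass, with a median log2 fold change of 0.45. Over all tested genes 32.6% rose and 32.2% fell, and the counts of this and the later lists stand beside these shares. The drug exporters Abcc5 and Abcg2 had values of 0.48 and 0.47, and the mitochondrial pyrimidine nucleotide carriers Slc25a36 and Slc25a33 had values of 0.47 and 0.45. Slc29a1 and Slc29a2 were the carriers that fell, while Slc29a3, a carrier of inner membranes, and the exporter Abcc4 had values of -0.02 and -0.15 and did not pass. The concentrative carrier genes Slc28a1, Slc28a2 and Slc28a3 and the carrier gene Slc29a4 had between 0 and 6 reads in every library and were not tested, so Slc29a1 was the leading plasma membrane nucleoside carrier by reads in both groups.

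Besides the 4 kinases above, 17 of 18 listed nucleoside and nucleotide kinases and phosphoribosyl transferases were tested, of which 8 rose, 6 fell and 3 did not pass, with a median of 0.02. Those that did not pass were Adk (0.02), Cmpk1 (-0.04), which adds the second phosphate to cytidine and uridine nucleotides, and Ak1 (-0.12). Uckl1, the third member of the uridine-cytidine kinase family, rose with a log2 fold change of 0.46 (edgeR adjusted p = 2.57e-06), so all listed members of that family rose. Uck1 and Uck2 were thus among risers and Dck and Tk1 among fallers of a group that moved both ways. Cmpk2, a mitochondrial UMP-CMP kinase gene known as interferon-inducible, rose from 0.927 to 7.14 CPM, a log2 fold change of 2.94. Guk1, the guanylate kinase, rose with a value of 0.82. Reads of Nme1, Nme2 and Nme3 are uncertain, because other annotated genes cover their exons on the same strand.

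Of the other breakdown genes, 17 of 20 were tested, of which 4 rose, 6 fell and 7 did not pass, with a median of -0.29. Over all tested genes 64.8% passed in either direction. Dctd, which deaminates dCMP to supply deoxyuridylate to thymidylate synthase, fell from 23 to 7.31 CPM, a log2 fold change of -1.65 beside -0.71 for Cda and -1.41 for Tyms. The cytosolic nucleotidase Nt5c3b fell as well (-0.71), whereas Nt5e (CD73), the surface enzyme that turns AMP into adenosine and a mesenchymal marker, rose from 50.9 to 229.3 CPM, a log2 fold change of 2.17. The other breakdown genes that rose were the pyrimidine-degrading Dpyd (2.20), the nucleotidase Nt5c2 (0.63) and the purine phosphorylase Pnp (0.56), of whose exon bases 18% lie under another gene on the same strand. Dpyd rested on few reads, 7 to 12 in the control and 25 to 52 in the induced libraries (SE 0.37).

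Of the other genes of deoxynucleotide synthesis and its folate and thioredoxin supply, 4 of 11 rose, 6 fell and 1 did not pass, with a median of -0.21. The folate enzymes Shmt1, Mthfd1l and Shmt2 had log2 fold changes of -1.51, -0.98 and -0.57, so Shmt1, which works beside thymidylate synthase, fell in company with Tyms (-1.41). The genes that rose included Rrm2b, Txnrd1 (0.29), which recycles the thioredoxin that ribonucleotide reductase needs, and Mthfd1 (0.25), and Mthfd2 (-0.09) did not pass.

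The genes that build nucleotides from small precursors moved one way, where 32.6% of all tested genes rose and 32.2% fell. All 5 pyrimidine ring genes fell (median -0.55), among them Cad (-0.90), whose protein carries out the first 3 steps, Umps (-0.87), which finishes UMP, and Ctps (-0.39), which makes CTP, beside Dhodh (-0.55) and Ctps2 (-0.34). Of 13 purine ring genes, 12 fell and Prps2 (-0.16) did not pass (median -0.62), with Impdh2, the first step towards GMP, at -1.13, Adsl at -0.88 and Paics at -0.67. No gene of either list rose.

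**Figure D5:**
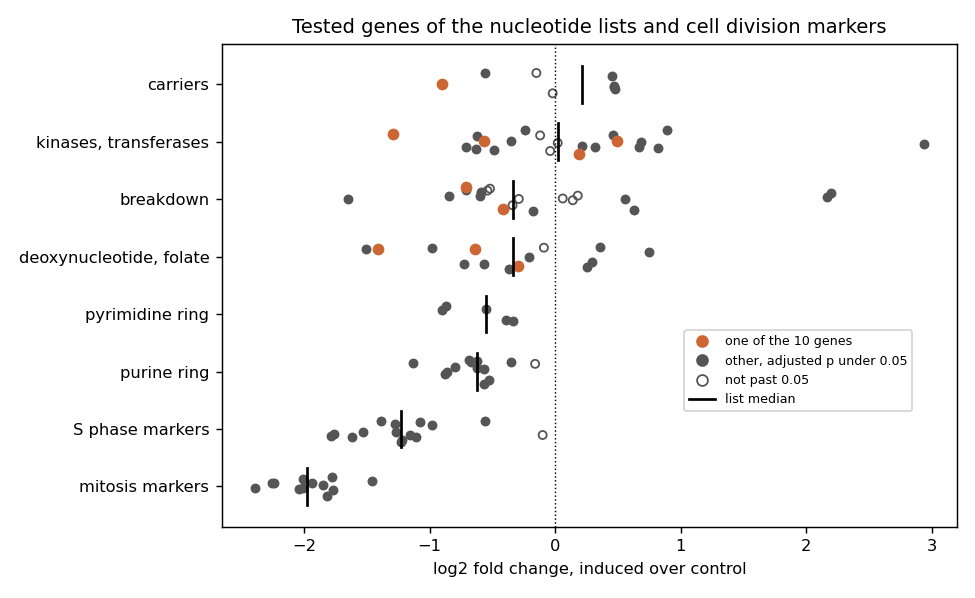
log2 fold change, induced over control, of each tested gene of the 6 nucleotide lists and of the S phase and mitosis markers. Orange points are the 10 genes, filled grey points are other genes with an adjusted p under 0.05, open points did not pass, and black bars are list medians, which run from 0.21 for the carriers to -1.97 for the mitosis markers.

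Markers of dividing cells moved with the synthesis genes, where 32.2% of all tested genes fell. Of 15 S phase markers, 14 fell and Fen1 (-0.10), of whose exon bases 84.2% are shared with genes on the other strand, did not pass, with a median log2 fold change of -1.23, and their summed level was 938.7 to 946.4 CPM in the control and 421.3 to 426.1 CPM in the induced libraries. The replication helicase genes Mcm5 and Mcm6 had values of -1.79 and -1.39. All 12 mitosis markers fell (median -1.97), from a summed 910.9 to 961.6 CPM to 232.1 to 252.0 CPM, with Bub1b at -2.26 and Cdc20 at -2.39. The S phase markers ranged from -1.79 to -0.10, with Fen1 the highest and Pcna (-0.56) the next. Tyms (-1.41) and Tk1 (-1.29) lay within this range, and 4 and 5 of 15 markers had a lower value. Rrm2 (-0.64) and Dck (-0.57) lay near its upper end, where 13 of 15 markers had a lower value. Rrm1 (-0.30) lay between Pcna and Fen1, and 14 of 15 markers had a lower value. The part of cell division in the changes of the 10 genes was not tested.

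Other cell types were looked for as well. The labelled cell type was checked with 7 markers of cardiosphere-derived and epicardial cells, all tested, of which 5 rose and 2 fell, with a summed level of 851.4 to 862.5 CPM in the control and 1584.2 to 1739.2 CPM in the induced libraries, among them the mesothelial gene Upk3b (1.89) and the epicardial factor Tcf21 (1.49). Those that fell were Ly6a (-0.57) and Tbx18 (-0.33). Most of the gain in the summed level was that of Upk3b, whose mean went from 254.0 CPM in the control to 942.1 CPM in the induced libraries. Of 11 leukocyte markers 4 were tested, of which 3 rose and 1 fell, in sum from 27.3 to 30.1 CPM in the control and from 54.1 to 61.8 CPM in the induced libraries. Fcer1g (6.36), Cd68 (3.89) and Lyz2 (1.96) rose and Csf1r (-1.05) fell. Fcer1g had only 0 to 2 reads in the control and 59 to 66 in the induced libraries (SE 0.51). Cd68 had the largest gain in CPM, from a mean of 1.95 to 29.2. The defining genes Ptprc, Cd52, Tyrobp, Itgam, Adgre1 and Cd3e had 0 reads in all 6 libraries. This value is uncertain for Itgam, most of whose exon bases lie under another gene on the same strand. None of 5 endothelial markers was tested, at a summed 0.255 to 0.943 CPM over all libraries. Of 7 cardiomyocyte markers 2 were tested and both rose, Tnnt2 (2.15) and Des (4.36), with a summed level of 11.6 to 15.1 CPM in the control and 62.1 to 65.6 CPM in the induced libraries. The defining genes Myh6, Myh7, Actn2 and Nppa had 0 to 8 reads in every library, and Ryr2 had 0 to 1 in the control and 9 to 10 in the induced libraries. The part of these markers in the changes of the 10 genes was not tested.

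Because azacytidine is known to lower methylation of CpG pairs in DNA, these pairs were counted in the 250 bases upstream of each RefSeq start, although methylation was not measured. All windows had a median of 6, with quartiles of 2 and 16. Rrm2 had 34, more than 96.5% of windows, followed by Samhd1 with 26, Uck2 with 21, Dck with 18 and Cda with 14. Uck1 had 12 and 15 at its 2 starts, Rrm1 had 7, and Tk1 and Tyms had 6 each. The 8 starts of Slc29a1 ranged from 2 to 24. CpG-rich windows were found among genes that rose (Uck2) and genes that fell (Rrm2, Samhd1), and the genes with the largest falls, Tyms and Tk1, had as many as the median window. The part of methylation in these changes was not tested.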

How the data were processed

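RNA-seq libraries of 3 control and 3 induced iCDC samples were analysed. Per the submitters' processing notes, HISAT2 2.0.5, featureCounts 1.5.0-p3, DESeq2 1.16.1 and the mm10 build were named, without roles, whereas the study's methods name DESeq, and no strand setting was given. The authors deposited read counts per gene, not normalized, with FPKM values in the same table. FPKM as deposited by the authors are fragments per kilobase of gene and library total, and were used only for levels between genes and for ratios. Columns of the authors' own comparisons and their gene ontology tables were not used.

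The 10 genes were matched by symbol, and their coordinates are those of the table. Counts were fitted with edgeR 4.0.16 (R 4.3.3): TMM scaling, filterByExpr (minimum count 10, total 15), which kept 14246 genes with 99.9% of reads, and glmQLFTest on all 6 libraries, with Benjamini-Hochberg adjustment at 0.05. SE is the absolute log2 fold change over the square root of F. The script was tested on simulated data. Promoter windows were 250 bases before RefSeq starts. The windows of Rrm1, Rrm2 and Tyms were printed up to the RefSeq start or the start in the table, whichever lay further upstream. Ratios were tested by exact permutation on log2 values. Total counts were 19041133 to 19823369 reads, and the lowest count behind one of the 10 genes was 167 reads.

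The genes and the 13 lists were chosen with earlier results of these data known, so their counts are descriptions. Genes named were the 10 genes, their ratio partners and the 3 other genes of each nucleotide list, or 2 of each marker list, with the smallest p by edgeR. Further genes in counts of 5 or fewer, and Uckl1 and Pcna, were named after their values were seen. Some genes that this rule names are not reported here. Alternatives were DESeq2 1.42.0, limma 3.58.1 on log2 FPKM, other normalizations and filters, other pseudocounts, a replicate block and each library left out. The main fit was also read at a stricter adjusted p of 0.01.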

Additional observations from a re-analysis of the deposited data

How the results depend on the processing

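The 10 genes were checked under 15 alternatives each. The stricter adjusted p of 0.01 reused the main fit, so its values could not change direction, here and among the 645 values below. All 150 values kept their direction and stayed under 0.05, and the highest adjusted p was 0.0127, for Uck2. Over the 43 tested genes that the naming rule picked, none of 645 values changed direction or side of the threshold. Genes named outside that rule were not in this check, and only the counts of their lists were recomputed. At 0.05 the number of all genes called ran from 8471 with DESeq2 to 9765 without a filter, and the main fit read at 0.01 gave 7783. Scaling to library totals moved the median log2 fold change by -0.04. Calls moved by over 1.5 times in 2 marker lists: 1 endothelial marker was called by DESeq2 and without a filter on low counts, against 0 in the main test and 0 to 1 when single libraries were left out (1 without control 1, 2 or 3 or induced 1), and 4 cardiomyocyte markers were called without that filter and 3 by DESeq2, against 2. Smaller moves arose in the kinases (15 to 18 called, 18 in the main test), breakdown (11 to 13, 12), deoxynucleotide (13 to 14, 13), purine (12 to 13, 12) and cardiosphere-derived cell lists (6 to 7, 7), and the counts of the other lists did not move. With a pseudocount of 1 on FPKM the log2 difference of Rrm2 to Rrm2b was -1.06 and that of Tk1 to Tk2 was -1.68.

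Control and induced samples share replicate numbers, but same-numbered libraries did not deviate together (correlations of -0.00, -0.02 and 0.03 across genes), so the numbers were taken as names. With a replicate block 10 of the 10 genes were called, as without it.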
